A study of Mus musculus with 10 samples.

Results

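The synaptic vesicle and release machinery was taken as the genes whose symbols belong to the synaptotagmin, synapsin, Sv2, synaptophysin, synaptogyrin, Vamp, syntaxin, syntaxin-binding, Snap, complexin, Rims, Unc13, Doc2 and Rab3 families, together with Bsn, Pclo and the 3 vesicular glutamate transporters. The rule used gene symbols and no measured value. It found 83 genes among the 22206 transcript clusters of the array, a transcript cluster being the set of probes that reports 1 gene. A further 3 clusters carried a symbol of these families beside that of another gene (Vamp1 with E130112N10Rik, Doc2g with Nudt8, and Stx5a with Mir6992) and were not counted. The authors' call of expression was positive in both lines for 78 of the 83 genes (94.0%, against 80.8% of all clusters). Syngr4 was called only in FztDU, and Stx11, Stx19, Cplx4 and Syt8 were called in neither line.

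At a chemical synapse, transmitter is loaded into vesicles by vesicular transporters, and the vesicles are held in reserve by synapsins. They are docked at the active zone by Rab3 proteins and large scaffolds such as Rims1, Bsn and Pclo, and are made ready for fusion by Unc13 proteins. Fusion is driven by SNARE proteins on the vesicle (Vamp2) and on the plasma membrane (Stx1a and Snap25), is held and timed by complexins, and is triggered by calcium through synaptotagmins. The hippocampus is rich in glutamatergic synapses that use this machinery in memory formation.

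Hippocampal RNA was measured in male mice of 2 outbred lines aged 21 to 22 weeks according to the labels, kept under specific pathogen-free conditions. DU6 is a line selected over many generations for high body mass and labelled as polygenic obesity, and FztDU is its non-selected control line, labelled as physiological metabolism. The study's methods also give 21 weeks for the mice used for RNA, while its results text gives a younger age in one place. The age of the labels was used here. Each line had 5 mice, and each mouse gave 1 Clariom S Mouse array of whole snap-frozen hippocampus. Each group is 1 breeding line, so that selection and drift cannot be told apart. The values are log2 signals, on which a difference of 1 is a 2-fold change in the deposited signal. Line averages that the authors deposited separately spread over a wider range, so folds may be compressed on the scale used here, and the signals of different genes are not comparable in level because each comes from its own probes. Differences are DU6 minus FztDU, tested with limma (two-sided, Benjamini-Hochberg adjustment over all 22206 clusters), and a gene was called at an adjusted p under 0.05 with an absolute fold change over 2. Errors of means are SD with n = 5.

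The arrays differed in tissue makeup as read from marker genes. All 7 markers of hippocampal pyramidal and granule neurons were called expressed in both lines, and their mean, centred on the 10 arrays, was -0.44 in DU6 replicate 2 and between -0.15 and 0.28 in the others. The single markers of this list did not move together between the lines. Spink8 was at 6.45 in DU6 and 5.38 in FztDU, a difference of 1.06 (limma, adjusted p = 0.143). Fibcd1 also had a higher mean in DU6, and Cpne4, Neurod2, Prox1, Neurod6 and Wfs1 had a lower one. The mean of the 7 choroid plexus markers, centred in the same way, ran from -1.32 to 2.26 in DU6 and from -1.26 to 1.84 in FztDU, and it was high in DU6 replicates 1 and 5 and in FztDU replicate 5. The mean of the 7 cerebellar markers, of which 6 were called expressed in both lines, was 4.37 in DU6 replicate 2 and between -0.71 and -0.21 in the other 9 arrays. Gabra6, a receptor subunit of cerebellar granule cells, was at 11.11 in that array and at 2.72 or below in every other. In whole tissue, fewer cells of a type and less RNA per cell cannot be told apart.

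No release gene was called between the lines (0 of 83, against 0.113% of all clusters), and none reached an adjusted p under 0.05 at any fold (0 of 83, against 0.162% of all clusters). The smallest adjusted p among the 83 genes was 0.649, for the glutamate transporter Slc17a8. An unadjusted p under 0.05 was reached by 6 of the 83 genes (7.23%, against 5.86% of all clusters). Among them, 2 genes had a higher mean in DU6 (2.41%, against 2.7% of all clusters), namely the priming factor Unc13c and the SNARE Vamp8. The other 4 had a lower mean in DU6 (4.82%, against 3.17% of all clusters), namely Slc17a8, the active zone scaffolds Rims1 and Bsn, and the vesicle protein Sv2c. For no gene did all 5 arrays of one line lie above all 5 of the other, as they did upwards for 0.513% and downwards for 0.712% of all clusters.

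The differences of the 83 genes ran from -0.59 (Sv2c) to 0.68 (Unc13c), with a median of -0.02 against 0.00 for all clusters. Of the 83, 47 had a lower mean (56.6%, against 49.5% of all clusters) and 36 a higher mean in DU6. The median absolute difference was 0.098, against 0.094 for all clusters. The 95% interval of the difference lay within a 2-fold change in either direction for 77 genes (92.8%, against 97.8% of all clusters) and within a 1.5-fold change for 66. The 6 genes whose intervals reached past 2-fold were Unc13c, Sv2c, Cplx3, Syt2, Syt9 and Slc17a6. Without the 3 arrays with high choroid plexus markers, 1 gene had a higher mean (Unc13c) and 3 a lower mean (Slc17a8, Sv2c and Syngr4) at an unadjusted p under 0.05, 4.82% in all against 5.42% of all clusters. Without these and DU6 replicate 2, 1 was higher (Rab3d) and 2 were lower (Rims1 and Syt9), 3.61% against 4.82%. Leaving out these 4 arrays keeps only 2 DU6 and 4 FztDU arrays.

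**Figure D1:**
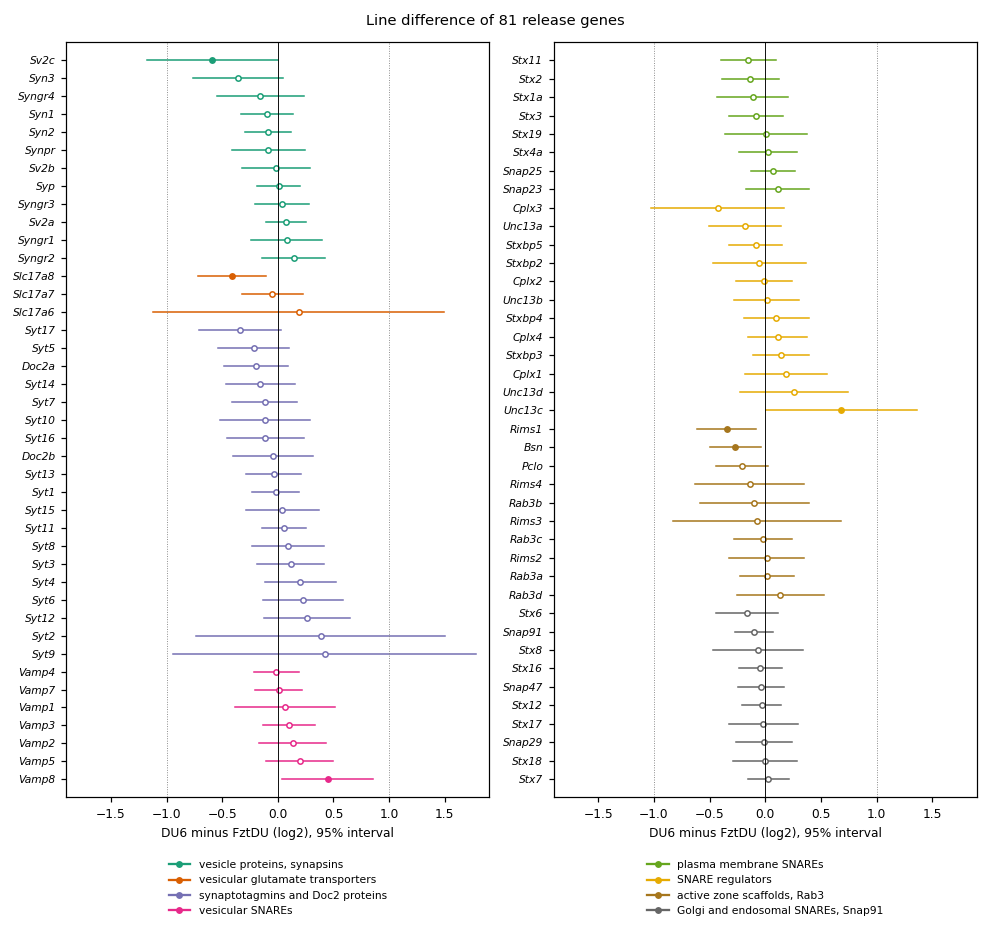
Difference between DU6 and FztDU in log2 signal (horizontal axis) for 81 of the 83 genes, with 95% intervals from limma, grouped and coloured by role. Filled points mark the 6 genes with an unadjusted p under 0.05, dotted lines mark a 2-fold change, and the differences run from -0.59 for Sv2c to 0.68 for Unc13c.

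Among the active zone scaffolds and Rab3 proteins, 7 of 10 genes had a lower mean in DU6 (70%, against 49.5% of all clusters). The median difference of the 10 was -0.09. At an unadjusted p under 0.05, 2 of the 10 had a lower mean (20%, against 3.17% of all clusters). These were Rims1, which links Rab3-bearing vesicles to Unc13 and to calcium channels, and Bsn, a giant scaffold of the presynaptic cytomatrix. The Rims1 signal in DU6 replicates 1 to 5 was 9.70, 10.09, 9.78, 9.48 and 9.57, and in FztDU replicates 1 to 5 it was 9.96, 10.14, 10.23, 10.12 and 9.91. Only DU6 replicate 2, the array with high cerebellar markers, fell inside the FztDU range, and the other 4 DU6 arrays lay below it. The means were 9.72 ± 0.24 in DU6 and 10.07 ± 0.13 in FztDU, a difference of -0.35 (95% interval -0.61 to -0.08), or 1.27-fold lower in DU6. It did not pass the test (limma, adjusted p = 0.670). The exact two-sided permutation test gave p = 0.0317, where the smallest p these 10 arrays allow is 0.00794.

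Bsn was measured at 6.86, 7.02, 7.21, 6.91 and 6.79 in DU6 and at 7.12, 7.29, 7.42, 7.17 and 7.14 in FztDU. DU6 replicate 3 alone lay inside the FztDU range, and the remaining DU6 arrays lay below it. The difference was -0.27 (95% interval -0.50 to -0.04; limma, adjusted p = 0.749). Pclo, the closest relative of Bsn at the active zone, read 9.88, 9.73, 9.95, 9.61 and 9.58 in DU6 against 10.10, 9.92, 10.09, 9.83 and 9.86 in FztDU. Its DU6 replicates 1 and 3 overlapped the FztDU arrays, and 3 lay below them. The Pclo difference was -0.21 (95% interval -0.44 to 0.02; limma, adjusted p = 0.902).

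With each array left out in turn, the Rims1 difference ranged from -0.44 to -0.29, that of Bsn from -0.33 to -0.22 and that of Pclo from -0.26 to -0.17. The lowest adjusted p that Rims1 reached in this way was 0.223 (limma), without DU6 replicate 2. Without the 3 arrays with high choroid plexus markers the Rims1 difference was -0.33, and without these and DU6 replicate 2 it was -0.48. For Bsn the same values were -0.20 and -0.19. The part of the marker genes in these differences was not tested.

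The means of the other Rims and Rab3 genes lay closer together in the 2 lines. Rims2, a second long Rims protein, differed by 0.01 (95% interval -0.33 to 0.35), and Rab3a, the main vesicle-bound Rab3 of brain, by 0.01 (95% interval -0.23 to 0.25). Rab3c differed by -0.02, Rab3b by -0.10 and the short form gene Rims4 by -0.14. Rab3d, which is known from secretory granules, had a difference of 0.13 over all 10 arrays (95% interval -0.26 to 0.53). It was named after its values were seen, because its difference was 0.53 (limma, adjusted p = 0.614) without the 4 arrays with high choroid plexus or cerebellar markers. That difference rests on 2 DU6 arrays, replicates 3 and 4, at 6.02 and 6.12.

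The promoters of the scaffold genes Rims1, Bsn and Pclo are shown because these genes act in the same structure and lie on separate chromosomes. They are the RefSeq windows from 250 bases before to 50 bases after the start of the gene on GRCm38.p6, written 5′ to 3′ on the strand of the gene, with GC boxes (GGGCGG, the letters bound by Sp1-type factors) in capitals.
Rims1 (chr1:22806109-22806408, minus strand): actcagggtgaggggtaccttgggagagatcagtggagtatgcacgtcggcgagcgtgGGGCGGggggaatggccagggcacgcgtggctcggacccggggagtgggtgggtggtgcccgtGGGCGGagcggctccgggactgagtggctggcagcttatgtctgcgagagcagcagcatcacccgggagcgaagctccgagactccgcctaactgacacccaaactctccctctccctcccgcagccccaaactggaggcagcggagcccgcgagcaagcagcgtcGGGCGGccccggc
Bsn (chr9:108190334-108190633, minus strand): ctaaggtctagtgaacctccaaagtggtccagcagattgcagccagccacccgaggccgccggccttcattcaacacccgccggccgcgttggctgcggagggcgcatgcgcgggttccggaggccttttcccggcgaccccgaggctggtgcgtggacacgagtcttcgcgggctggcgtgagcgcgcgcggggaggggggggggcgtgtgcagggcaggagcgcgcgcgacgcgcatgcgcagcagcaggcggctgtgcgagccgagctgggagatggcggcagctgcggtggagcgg
Pclo (chr5:14514668-14514967, plus strand): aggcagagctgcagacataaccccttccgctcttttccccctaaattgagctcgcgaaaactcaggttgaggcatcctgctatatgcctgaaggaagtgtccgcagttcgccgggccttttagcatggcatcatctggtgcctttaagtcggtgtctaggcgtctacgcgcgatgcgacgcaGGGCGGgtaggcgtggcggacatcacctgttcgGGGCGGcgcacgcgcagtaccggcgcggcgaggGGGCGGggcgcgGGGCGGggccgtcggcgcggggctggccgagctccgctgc
The Rims1 window held 3 GC boxes and 26 CpG dinucleotides, and 69.3% of its bases were G or C. That of Bsn held 38 CpG and no GC box on either strand at 72.3% G or C, and that of Pclo held 35 CpG and 4 GC boxes. The window of Rimbp2, an active zone gene outside the 83 with a lower mean in DU6, is not shown. It held 7 CpG and 0 GC boxes, and 62.7% of its bases were G or C. A promoter entry was found for 62 of the 83 genes, in 80 entries. GGGCGG on either strand was present in 66.2% of these, against 35.7% of all 32851 entries, and the TATA box letters TATAAA in 6.25% against 13.6%. The cyclic AMP response element TGACGTCA was present in 2.5% against 1.79%, and CCAAT in 25% against 37.4%. The median share of G and C was 62.3% in the promoters of the release genes and 52.7% in all entries, with a median of 19 and 7 CpG dinucleotides.

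The active zone genes outside the 83 were read from a list of 49 release partners. Of these, 0 were called, against 0.113% of all clusters, and the median difference was -0.01. At an unadjusted p under 0.05, 0 had a higher mean in DU6, against 2.7% of all clusters. A lower mean at that threshold was found for 2 (4.08%, against 3.17% of all clusters). Of the 9 partners at the active zone, 7 had a lower mean in DU6 (77.8%, against 49.5% of all clusters), with a median of -0.13. Rimbp2, which ties Rims proteins to calcium channels, read 7.50, 6.67, 8.05, 7.52 and 7.49 in DU6 and 8.23, 8.11, 8.04, 8.05 and 7.96 in FztDU. Its lowest value came from DU6 replicate 2, and DU6 replicate 3 alone lay inside the FztDU range. The Rimbp2 difference was -0.63 (95% interval -1.06 to -0.21; limma, adjusted p = 0.518), and -0.44 without DU6 replicate 2. It was -0.69 without the 3 arrays with high choroid plexus markers and -0.32 without the 4 with high choroid plexus or cerebellar markers. With the marker means as covariates it was -0.36.

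Napa, which works with the ATPase Nsf to take spent SNARE complexes apart, had a difference of -0.27 (95% interval -0.49 to -0.05; limma, adjusted p = 0.706). In Napa, too, 4 DU6 arrays lay below the FztDU range. Erc2, a scaffold that binds Rims proteins, differed by -0.19 and the liprin Ppfia3 by -0.18, and by -0.0850 and 0.0025 without the 4 arrays. Both were named after their values were seen, and for neither did the 95% interval exclude 0. Cacna2d1, an auxiliary subunit of the presynaptic calcium channels, differed by -0.18 (95% interval -0.40 to 0.05). The vesicular GABA transporter Slc32a1 differed by 0.26 (95% interval -0.08 to 0.60).

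Of the 3 vesicular glutamate transporters, Slc17a7, the principal one of hippocampal excitatory neurons, was at 11.22 ± 0.18 in DU6 and 11.27 ± 0.22 in FztDU, a difference of -0.05 (95% interval -0.32 to 0.22). Slc17a8, the form found in some interneurons and in neurons of other transmitters, read 4.80, 4.69, 4.96, 5.09 and 4.50 in DU6 and 5.26, 5.55, 5.13, 5.28 and 4.88 in FztDU. In this gene 3 DU6 arrays lay below the FztDU range. The difference was -0.41 (95% interval -0.72 to -0.10), or 1.33-fold lower in DU6, and did not pass the test (limma, adjusted p = 0.649; exact two-sided permutation p = 0.0317). With each array left out it ranged from -0.50 to -0.33, and it was -0.28 without the 4 arrays with high choroid plexus or cerebellar markers. The Slc17a8 means, 4.81 in DU6 and 5.22 in FztDU, lay below the array medians of 5.47 to 5.52.

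Slc17a6, the transporter of thalamic and many subcortical glutamatergic neurons, spanned the widest range of the 83 genes, 4.09 on the log2 scale. It read 7.09, 7.18, 7.88, 7.04 and 8.77 in DU6 and 7.51, 8.04, 7.10, 5.14 and 9.23 in FztDU. DU6 replicate 5 and FztDU replicate 5 were the highest arrays and FztDU replicate 4 the lowest. The mean of the 7 clusters of 5 thalamic marker genes was 0.90 and 1.25 in the 2 high arrays and between -0.57 and 0.11 in the other 8. This mean was -0.48 in FztDU replicate 4. It was lowest, -0.57, in DU6 replicate 4, where Slc17a6 read 7.04. The part of thalamic tissue in the Slc17a6 signal was not tested. The difference between the lines was 0.19 (95% interval -1.12 to 1.50), and it ranged from -0.38 to 0.64 as single arrays were left out.

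**Figure D2:**
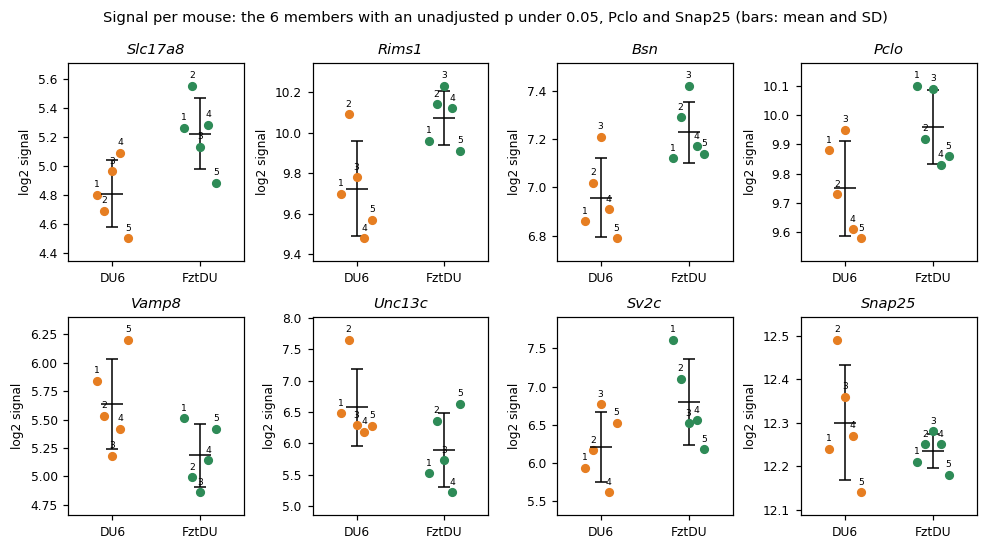
Log2 signal (vertical axes, each gene on its own scale) in each mouse of DU6 (orange) and FztDU (green), with replicate numbers, for the 6 genes with an unadjusted p under 0.05 and for Pclo and Snap25. Bars give mean and SD, and in every panel at least 1 array of each line lies within the range of the other.

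Of the 12 vesicle membrane proteins and synapsins, 7 had a lower mean in DU6 (58.3%, against 49.5% of all clusters). The median difference of the 12 was -0.05. At an unadjusted p under 0.05, 1 of the 12 had a lower mean (8.33%, against 3.17% of all clusters). This was Sv2c, a relative of the vesicle glycoprotein Sv2a with a narrower distribution in brain. Its values were 5.94, 6.17, 6.77, 5.62 and 6.53 in DU6 and 7.61, 7.10, 6.52, 6.56 and 6.18 in FztDU. DU6 replicates 3 and 5 lay inside the FztDU range, and the FztDU arrays alone spread from 6.18 to 7.61. The difference was -0.59 (95% interval -1.17 to -0.0014; limma, adjusted p = 0.849), and -0.38 without FztDU replicate 1. It was -0.76 without the 3 arrays with high choroid plexus markers and -0.75 without these and DU6 replicate 2. Syn3, a synapsin of developing neurons, differed by -0.36 (95% interval -0.77 to 0.05).

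Other proteins of the vesicle surface had means close to each other in the 2 lines. Syp, the classical marker protein of the vesicle membrane, was at 11.86 ± 0.08 in DU6 and 11.85 ± 0.10 in FztDU, a difference of 0.01 (95% interval -0.18 to 0.20). Sv2a, the binding site of the drug levetiracetam, differed by 0.07 (95% interval -0.11 to 0.25). Syn1, which tethers reserve vesicles, differed by -0.10 (95% interval -0.33 to 0.14).

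None of the 19 synaptotagmins and Doc2 proteins reached an unadjusted p under 0.05, against 5.86% of all clusters. The median difference of the 19 was -0.02. Syt1, the calcium sensor of fast release in forebrain, read 11.90, 11.79, 11.97, 11.93 and 11.94 in DU6 and 11.67, 12.02, 12.09, 11.91 and 11.93 in FztDU. All DU6 arrays lay inside the FztDU range, and the difference was -0.02 (95% interval -0.23 to 0.19). Syt17, a synaptotagmin-like protein with no membrane-spanning segment, had the lowest difference of the group, -0.34 (95% interval -0.71 to 0.02), and Syt5 followed at -0.22 (95% interval -0.53 to 0.10), or -0.07 without DU6 replicate 2.

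Syt2, the calcium sensor of fast-firing synapses including those of the cerebellum and of Pvalb interneurons, varied mainly through 1 array. It was at 8.61 in DU6 replicate 2 and between 5.11 and 6.77 in the other 9 arrays. With that array the difference between the lines was 0.38 and without it -0.14. The interneuron gene Pvalb read 9.65 in the same array and 7.74 or less in the others, and the mean of the 5 inhibitory neuron markers was 0.69. Syt9, another fast calcium sensor, read 7.24, 7.77, 5.04, 4.80 and 7.61 in DU6 and 6.50, 5.31, 5.61, 5.36 and 7.57 in FztDU. The 4 highest arrays were DU6 replicates 1, 2 and 5 and FztDU replicate 5, the same arrays in which choroid plexus or cerebellar markers were high. The Syt9 difference was 0.42 over all arrays (95% interval -0.94 to 1.78) and -0.78 without those 4 (limma, adjusted p = 0.998), and the part of other tissue in it was not tested.

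Of the 7 vesicular SNAREs, 6 had a higher and 1 a lower mean in DU6 (lower for 14.3%, against 49.5% of all clusters). The median difference of the 7 was 0.10. Vamp8, a SNARE of secretory granules and of fusion with lysosomes, read 5.84, 5.53, 5.18, 5.42 and 6.20 in DU6 and 5.51, 4.99, 4.86, 5.14 and 5.42 in FztDU. DU6 replicates 1, 2 and 5 lay above the FztDU range. The difference was 0.45 (95% interval 0.04 to 0.86), or 1.37-fold higher in DU6, and did not pass the test (limma, adjusted p = 0.796; exact two-sided permutation p = 0.0635). The 2 highest arrays, DU6 replicates 5 and 1, also had the highest choroid plexus marker means, 2.20 and 2.26. Without the 3 arrays high in these markers the difference was 0.25, and with choroid plexus and cerebellar means as covariates it was 0.33.

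Vamp5, which lies beside Vamp8 on chromosome 6 (72368049 to 72380468, against 72385221 to 72390703 for Vamp8, mm10), differed by 0.20 (95% interval -0.11 to 0.50), and by 0.0083 without the 3 arrays high in choroid plexus markers. Vamp2, the main vesicle SNARE of hippocampal synapses, was at 10.46 ± 0.16 in DU6 and 10.32 ± 0.29 in FztDU, a difference of 0.13 (95% interval -0.17 to 0.43). In Vamp2 the lowest value, 9.85, came from FztDU replicate 1, and without that array the difference was 0.0135.

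The 9 plasma membrane SNAREs included no gene with an unadjusted p under 0.05, against 5.86% of all clusters. The differences of the 9 ran from -0.15 to 0.11. Snap25 read 12.24, 12.49, 12.36, 12.27 and 12.14 in DU6 and 12.21, 12.25, 12.28, 12.25 and 12.18 in FztDU. The FztDU arrays lay within the DU6 range, and the difference was 0.07 (95% interval -0.13 to 0.26). Stx1a, a syntaxin that pairs with Snap25, differed by -0.11 (95% interval -0.44 to 0.21). Stx2, a syntaxin of non-neuronal secretion, differed by -0.14. Snap23, the relative of Snap25 used outside neurons, differed by 0.11.

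The 13 SNARE regulators had a median difference of 0.01, with 1 gene at an unadjusted p under 0.05 (7.69%, against 5.86% of all clusters). Unc13c, the form of the vesicle-priming Unc13 proteins that is typical of cerebellar granule cells, read 6.48, 7.65, 6.29, 6.18 and 6.28 in DU6 and 5.52, 6.36, 5.73, 5.22 and 6.63 in FztDU. DU6 replicate 2, with its high cerebellar markers, was the highest array, and the other 4 DU6 arrays lay inside the FztDU range. The difference was 0.68 (95% interval 0.0064 to 1.36), or 1.61-fold higher in DU6, and did not pass the test (limma, adjusted p = 0.844; exact two-sided permutation p = 0.111). Without DU6 replicate 2 it was 0.42 (limma, adjusted p = 0.855), and with the marker means as covariates it was 0.26. Without the 3 arrays with high choroid plexus markers it was 1.00, and without these and DU6 replicate 2 it was 0.53.

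Unc13a, the main priming protein of hippocampal synapses, differed by -0.19 (95% interval -0.51 to 0.14), and DU6 replicate 2 held its lowest value, 7.92, without which the difference was -0.06. The complexins Cplx1 and Cplx2 differed by 0.19 (95% interval -0.18 to 0.55) and -0.02 (95% interval -0.27 to 0.24), and without FztDU replicate 1 the Cplx1 difference was 0.045. Cplx3, a complexin known from retinal ribbon synapses, differed by -0.43 (95% interval -1.03 to 0.17), with its highest value, 6.04, in FztDU replicate 2, and by -0.20 without that array.

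A group of 10 genes joined the SNAREs of the Golgi, endosomes and other membranes with the clathrin assembly protein Snap91. These 10 genes held the narrowest span of differences of the 8 role groups, from -0.17 (Stx6) to 0.03 (Stx7). Of the 10, 9 were below 0 (90%, against 49.5% of all clusters). Stx6, a syntaxin of the trans-Golgi network, was at 8.54 ± 0.28 in DU6 and 8.71 ± 0.10 in FztDU (95% interval -0.45 to 0.12), and its difference was -0.07 without DU6 replicate 2. Snap91, which shapes the clathrin coat during vesicle retrieval, read 10.54, 10.62, 10.61, 10.60 and 10.51 in DU6 and 10.68, 10.70, 10.60, 10.67 and 10.74 in FztDU. Its total range was 0.23, and the difference was -0.10 (95% interval -0.28 to 0.07; limma, adjusted p = 0.980; exact two-sided permutation p = 0.0317).

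**Figure D3:**
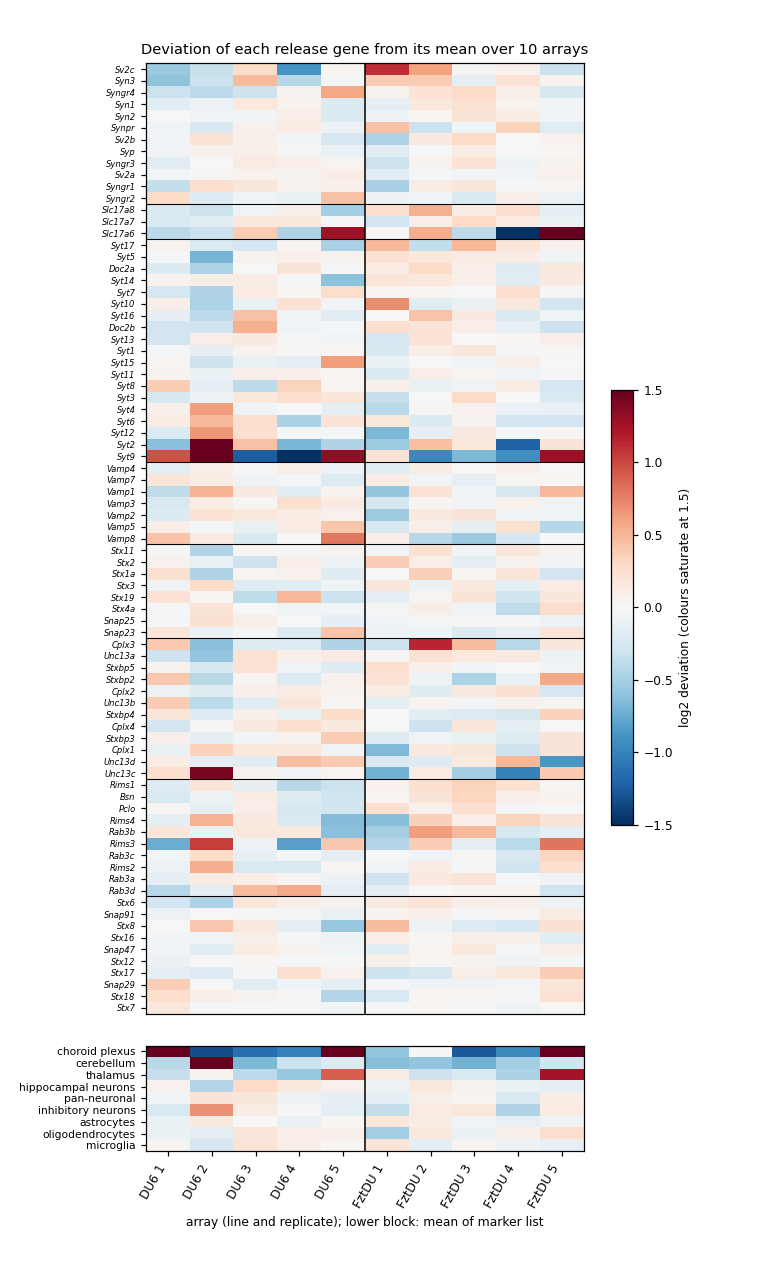
Log2 deviation of 81 of the 83 genes (rows, by role group) from its mean over the 10 arrays (columns), with the means of 9 marker lists in the lower block. Syt2 and Unc13c stand out in DU6 replicate 2, Syt9 in the arrays with high choroid plexus or cerebellar markers, and Slc17a6 in both replicates 5.

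The spread between single mice was read over all 10 arrays. The range over the 10 arrays exceeded 1 on the log2 scale for 19 genes (22.9%, against 17.5% of all clusters) and exceeded 2 for 4 (4.82%, against 1.50%), namely Slc17a6, Syt2, Syt9 and Unc13c. The median SD within a line was 0.222 in DU6 and 0.195 in FztDU, against 0.211 and 0.192 over all clusters. SD was higher in DU6 for 46 of the 83 genes (55.4%, against 57.4% of all clusters), and for 37 without DU6 replicate 2 (44.6%, against 49.2%).

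Rims3, a short Rims protein, read 7.59 in DU6 replicate 2 and between 5.74 and 7.36 elsewhere, and its difference between the lines was -0.08 (95% interval -0.83 to 0.68). Measured against the mean of the other 9 arrays, DU6 replicate 2 was higher by 2.54 for Syt2, 1.65 for Syt9, 1.57 for Unc13c and 1.15 for Rims3, and by 0.72 for Syt12. Its Syt5 value was -0.77 against the same mean. It was the highest array for 16 and the lowest for 14 of the 83 genes, against 15.4% and 17.2% of all clusters.

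FztDU replicate 1 was the lowest array for 21 of the 83 genes (25.3%, against 10.1% of all clusters). Of the 17 core genes of fast release, 8 were lowest there, among them Syp, Syt1, Vamp2 and Slc17a7. The mean of the 4 oligodendrocyte markers in that array was -0.52 and that of the 5 inhibitory neuron markers -0.36. The inhibitory mean was lower in FztDU replicate 4 (-0.45), which was the lowest array for 8 of the 83 genes and 0 of the 17 core genes. The part of these markers in the low values was not tested. FztDU replicate 3 was the highest array for 13 genes (15.7%, against 7.59% of all clusters).

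**Figure D4:**
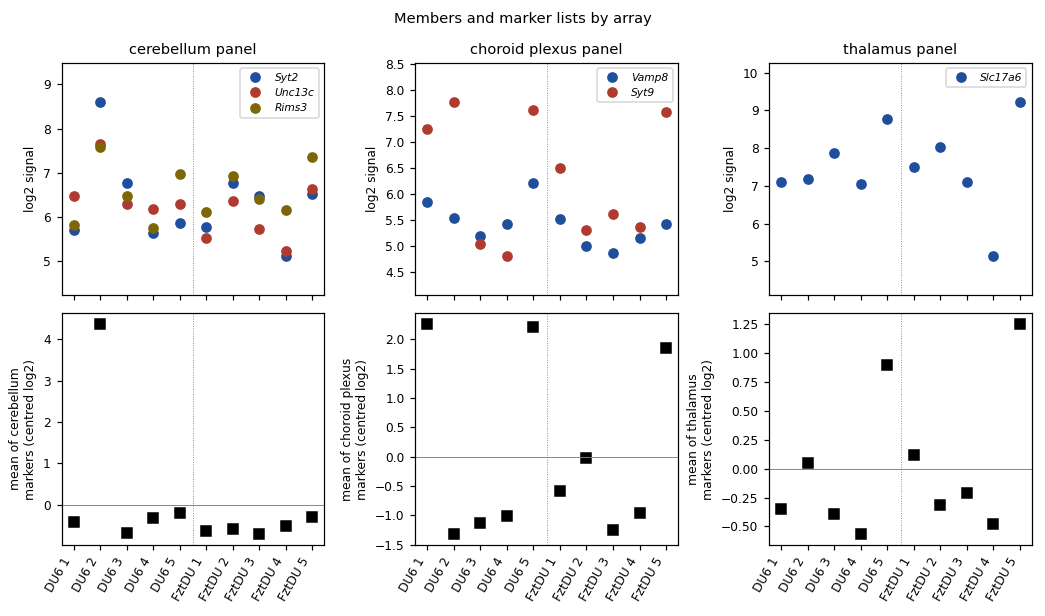
Upper panels give the log2 signal of Syt2, Unc13c and Rims3, of Vamp8 and Syt9, and of Slc17a6 in each of the 10 arrays, and lower panels give the mean of the cerebellar, choroid plexus and thalamic markers in the same arrays. The cerebellar mean is 4.37 in DU6 replicate 2, where Syt2 is at 8.61.

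**Figure D5:**
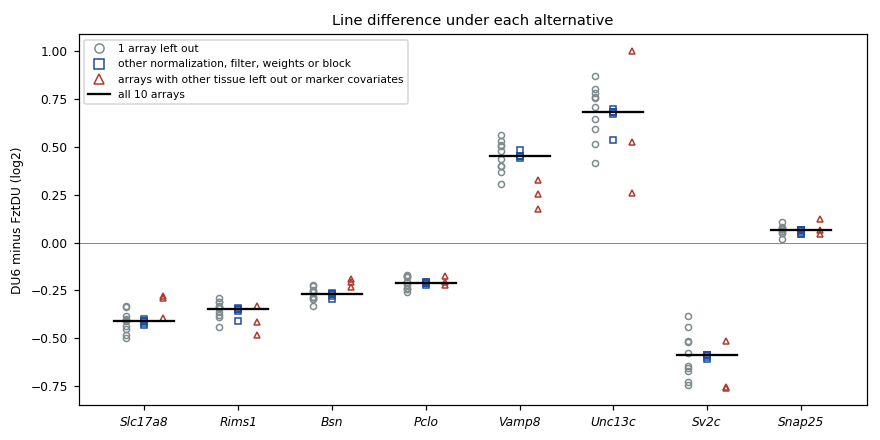
Difference between DU6 and FztDU in log2 signal (vertical axis) for 8 genes over all 10 arrays (black bars), with each array left out (circles), under other normalizations, filters, weights or the block (squares), and with arrays high in other tissue left out or their markers as covariates (triangles). The Rims1 difference stays between -0.48 and -0.29, and that of Unc13c runs from 0.26 to 1.00.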

How the data were processed

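RNA from the hippocampus of 5 DU6 and 5 FztDU males was hybridised to Clariom S Mouse arrays, with 1 array for each mouse. Per the study's methods, scanned intensities were normalized in the Transcriptome Analysis Console by the SST-RMA algorithm and annotated on mm10. The log2 signals that the authors deposited for each array were taken unchanged, and the array medians lay between 5.47 and 5.52. A deposited summary table supplied gene symbols, positions and the authors' calls of expression for each line (true or false, with no rule stated). Its averages, standard deviations, fold changes, p-values and false discovery rates were not used. The averages in that table spread over a wider range than the array values, by a step that is not stated, so every fold given here holds only for the scale of the array values and may be smaller than on the other scale.

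All 22206 clusters entered 1 limma model of line (limma 3.58.1, R 4.3.3, moderated two-sided test, p adjusted by Benjamini-Hochberg), unfiltered, and the script was tested on simulated data. For single genes, an exact permutation p was counted over the 252 ways to split the 10 arrays. Arrays have no counting depth, so their number limits the precision. The limma p-values set the difference between the lines against a moderated spread between mice of a line.

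The genes named are the core genes of fast release, those with an unadjusted p under 0.05, the 2 smallest p of each of 8 role groups, the 6 genes in which DU6 replicate 2 lay farthest from the other arrays, the 4 partners with the smallest p and Slc32a1. Rims2, Rims4, Rab3b, Rab3c, Rab3d, Slc17a6, Snap23, Stx7, Syngr4, Erc2, Ppfia3 and the genes named only for an outlying array fall outside this rule and were named after their values were seen. Single results of 2 of the 83 genes are not reported here, though counts and medians include them. The members and lists were chosen with earlier results of these data known. Promoters came from RefSeq (GRCm38.p6), and 21 genes had no entry. Plots were made in matplotlib 3.10.9 (Python 3.11.15). Alternatives were quantile normalization, median centring, filters on low clusters, trend and robust fitting, weighted arrays, a block for the replicate number and the omission of each array. Those with arrays high in other tissue left out or with marker means as covariates were chosen after seeing the data.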

Additional observations from a re-analysis of the deposited data

Results flagged for a closer look

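In 13 of 166 sets of 5 arrays (7.83%), 1 mouse lay far from the other 4 of its line, with a gap to its neighbour above Dixon's 95% critical value of 0.71 of the range. Chance marks about 1 in 20 such sets, a nominal rate, since the sets share the same 10 arrays and are not independent. The share over all clusters was not computed. DU6 replicate 2, the array with high cerebellar markers, held 7 of the 13. Over all clusters this array was the highest of the 10 for 15.4% and the lowest for 17.2%, so the count is not particular to the release genes as far as was tested. It was the highest DU6 array for Unc13c (7.65, the others 6.18 to 6.48), Syt4 (10.42, the others 9.65 to 9.86), Stx4a (6.99, the others 6.73 to 6.79) and Stx3 (6.75, the others 6.28 to 6.41). It was the lowest for Syt5 (9.0, the others 9.67 to 9.77), Syt11 (10.78, the others 10.91 to 10.96) and Stx11 (2.16, the others 2.58 to 2.66), a gene called expressed in neither line. The part of cerebellar tissue in these values was not tested.

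FztDU replicate 1 was low for the vesicle protein Syngr1 (9.36, the others 9.84 to 10.02) and for Rims4 (5.65, the others 6.39 to 6.65). DU6 replicate 5 was low for Syt14 at 5.76, against 6.34 to 6.49. DU6 replicate 1 was high for the endosomal syntaxin Stx7 at 8.62, against 8.41 to 8.45. In FztDU, replicate 5 was high for Snap29 (7.83, the others 7.59 to 7.62) and replicate 4 for Syt7, a sensor of slow release (9.90, the others 9.63 to 9.70). None of these genes reached an unadjusted p under 0.05 between the lines except Unc13c.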

How the results depend on the processing

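No release gene was called under any alternative, and the smallest adjusted p was 0.223 (limma), for Rims1 without DU6 replicate 2. The count with a higher mean in DU6 at an unadjusted p under 0.05, 2 over all arrays, was 1 with array weights, with trend and robust fitting and without the lowest 25% of clusters (Vamp8), without the 3 arrays high in choroid plexus markers (Unc13c), and with the marker covariates or without the 4 arrays high in other tissue (Rab3d, neither of the 2), and 0 without the lowest 50% of clusters. With each array left out it ranged from 0 (without DU6 replicate 1, FztDU replicate 3 or FztDU replicate 4) to 3. The lower count, 4 over all arrays, was 2 without the lowest 50% of clusters (Rims1 and Bsn) or without the 4 arrays (Rims1 and Syt9). It was 1 (Rims1) with the covariates, and 2 to 6 with each array left out. Omission of DU6 replicate 1 gave 2 and omission of DU6 replicate 3 gave 6. Genes whose lines did not overlap, 0 over all arrays, numbered 3 without the 3 arrays (3.61%, against 5.90% of all clusters), 9 without the 4, which leaves 2 DU6 and 4 FztDU arrays (10.8%, against 11.8%), and 0 to 2 with each array left out. The median difference of the release genes ranged from -0.032 (without FztDU replicate 1) to 0.0175 (without the 4 arrays).

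Among the named genes, the sign turned for Syp with quantile normalization (-0.0288), median centring (-0.002) and array weights (-0.00722), and with array weights for Rab3a (-0.0319) and Cplx2 (0.00631). Without the 3 arrays it turned for Rims3 (0.20), and without the 4 for Syt9 (-0.78), Slc17a7 (0.10), Syn1 (0.0325), Syt1 (0.0275), Cplx2 (0.02), Unc13a (0.02), Stx6 (0.0175) and Ppfia3 (0.0025). With the covariates it turned for Syt9 (-0.49), Syt2 (-0.16), Slc17a6 (-0.0479), Cplx2 (0.0912), Slc17a7 (0.0551), Stx1a (0.0326), Syt1 (0.0200) and Unc13a (0.00222). With single arrays left out it turned for Slc17a6 (-0.38 to 0.64), Syt2 (-0.14 to 0.60), Rims3 (-0.35 to 0.12), Slc17a7 (-0.13 to 0.015), Cplx2 (-0.081 to 0.039), Rab3a (-0.059 to 0.0635), Syp (-0.032 to 0.038) and Syt1 (-0.0815 to 0.0235). The cause of these changes was not tested.

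The labels do not say that a replicate number marks anything shared by mice of the 2 lines. Deviations correlated above 0.1 in 3 of 5 pairs, and 5 of 10 arrays correlated best with their own number. No chance level was computed for these counts, so whether mice of one number share a factor was not tested. The mice were treated as unpaired because the labels name no pairing. With the replicate block, 2 genes had a higher and 5 a lower mean at an unadjusted p under 0.05, and 0 were called.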
